A study of Mus musculus with 36 samples.

Results

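A set of 34 mouse genes of glycolysis and of the cellular response to low oxygen was followed across a bulk RNA-seq series of Kmt2a-AFF1+ leukaemia. The genes were matched by symbol, and all 34 were found among the 55414 gene identifiers of the count tables. By role they comprise 13 glycolytic enzymes, 5 genes of transport and flux control, the transcription factor Hif1a with 2 oxygen sensors, and 13 other hypoxia targets. The series holds 36 libraries in 9 groups of 4. Leukaemia libraries came from terminally ill mice labelled as overexpressing miR-130b together with the Kmt2a-AFF1 fusion (the series' design text names miR-130a), and control libraries from the bone marrow (BM) of non-leukaemic mice carrying a scrambled miRNA with the same fusion. The fusion is therefore shared by every group. Cells were freshly sorted as Lin- c-Kit+ Sca-1+ Flt3- (HSC/MPP, called HSC here), Lin- c-Kit+ Sca-1+ Flt3+ (LMPP) or Lin- c-Kit+ Sca-1- (LK/CLP, called LK). Each leukaemia mouse gave 1 BM and 1 central nervous system (CNS) library of 1 cell type, which makes 12 CNS-marrow pairs, while each of the 4 control mice contributed marrow libraries of all 3 types. Control CNS libraries were not analysed here.

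Glycolysis splits glucose into pyruvate, and lactate dehydrogenase turns pyruvate into lactate when respiration is limited or bypassed. Under low oxygen the prolyl hydroxylases encoded by the Egln genes stop marking HIF-1α for destruction, and the stabilised factor, with its partner ARNT, binds a short core motif in the promoters of glucose transporters, most glycolytic enzymes and genes of mitophagy, pH control and vessel growth. HIF-1α is regulated mainly at the protein level, so Hif1a RNA does not report its activity. Marrow is a low-oxygen tissue, and blood stem cells are known for a glycolytic metabolism.

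Promoter letters were read for the genes on which the comparisons turn. The core HIF motif was searched as ACGTG and GCGTG on both strands in the 250 bases before the RefSeq start (GRCm38.p6), available for 31 of the 34 members; Slc2a3, Bnip3l and Ndrg1 had no entry. At least 1 of these motifs occurred in 24 of the 31 promoters (77.4%), against 10442 of 27025 promoters of all genes (38.6%). ACGTG was present in 16 members (51.6% against 16.5%) and GCGTG in 16 members (51.6% against 28.3%). The promoters of all genes were not matched to the members by expression or base composition, so these shares do not show an excess of HIF sites. By role a match was found in 8 of 13 glycolytic enzymes (61.5%), 9 of 11 other hypoxia targets (81.8%), 4 of 4 genes of transport and flux control and 3 of 3 of Hif1a and its sensors. ACGTG is also part of CACGTG, the E-box bound by other factors, and that overlap was counted as a match. Promoters of 5 members are printed 5′ to 3′ in the gene's direction, with every match in capitals (CACGT and CACGC are the motifs on the other strand). Ldha (chr7:46845554-46845803, plus strand) and Pgam1 (chr19:41911621-41911870, plus) are among the enzymes that differed most between control cell types, Pfkp (chr13:6648772-6649021, minus) is the member called between niches with the mouse as a block, Slc2a1 (chr4:119108495-119108744, plus) went opposite to the enzymes, and Bnip3 (chr7:138909507-138909756, minus) is a hypoxia target with the most matches shown.
Ldha: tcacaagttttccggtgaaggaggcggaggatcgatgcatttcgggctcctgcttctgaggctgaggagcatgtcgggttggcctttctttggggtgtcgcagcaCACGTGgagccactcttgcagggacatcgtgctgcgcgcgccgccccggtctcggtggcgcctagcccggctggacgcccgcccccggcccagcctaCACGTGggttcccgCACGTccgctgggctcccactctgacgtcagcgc
Pgam1: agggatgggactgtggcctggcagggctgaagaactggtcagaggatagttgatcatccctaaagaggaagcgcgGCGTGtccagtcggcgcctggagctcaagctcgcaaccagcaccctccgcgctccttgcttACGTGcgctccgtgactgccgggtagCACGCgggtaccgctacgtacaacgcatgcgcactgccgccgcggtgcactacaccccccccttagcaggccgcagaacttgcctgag
Pfkp: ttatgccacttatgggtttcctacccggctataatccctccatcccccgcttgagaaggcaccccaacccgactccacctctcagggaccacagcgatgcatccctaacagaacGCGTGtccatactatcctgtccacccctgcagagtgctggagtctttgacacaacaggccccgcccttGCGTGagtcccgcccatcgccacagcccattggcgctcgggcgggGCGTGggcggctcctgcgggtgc
Slc2a1: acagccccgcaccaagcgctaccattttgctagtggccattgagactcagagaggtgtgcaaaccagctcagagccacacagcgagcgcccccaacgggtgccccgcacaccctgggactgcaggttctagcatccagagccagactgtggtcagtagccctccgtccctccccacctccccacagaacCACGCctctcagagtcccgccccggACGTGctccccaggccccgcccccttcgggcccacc
Bnip3: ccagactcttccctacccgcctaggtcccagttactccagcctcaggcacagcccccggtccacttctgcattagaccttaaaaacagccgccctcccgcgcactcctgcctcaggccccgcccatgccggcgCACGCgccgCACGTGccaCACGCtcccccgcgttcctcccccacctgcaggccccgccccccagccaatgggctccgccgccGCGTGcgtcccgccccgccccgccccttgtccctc
The matches start at -145, -48 and -34 in Ldha, at -175, -114 and -88 in Pgam1, and at -136, -68 and -23 in Pfkp. In Slc2a1 they start at -61 and -36, and in Bnip3 at -117, -108, -99 and -35. No match lay in these windows of Aldoa, Gpi1, Hk1, Pkm, Tpi1, Mxi1 and Vegfa. A match is a run of letters and not a measured binding site.

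Library totals ran from 1.91 M to 30.4 M counts. Counts over 1498 sensory receptor genes, which blood cells are not known to express, gave each library a background rate per kilobase of exon, and this background made up 0.443% to 27.7% of a library's counts. It was highest in control HSC (21.6% to 27.7%) and control LMPP (14.1% to 26.9%) and lower in control LK (6.48% to 12.3%). Sort markers followed the labels in controls: Flt3 averaged 37.8 CPM for HSC, 268 for LMPP and 41.1 for LK, and Ly6a (Sca-1) 17.6, 16.5 and 3.13 CPM. In leukaemia BM LK libraries Flt3 averaged 297 CPM. Hlf, a stem cell factor at 111 CPM in control HSC and 121 CPM in control LMPP, averaged 7.26 CPM in leukaemia BM HSC. Mecom, also a stem cell factor, averaged 113 CPM in leukaemia BM HSC and 120 CPM in control HSC, and the surface marker Procr 4.72 and 15.8 CPM. The library CNS HSC 1 stood apart by its summed microglia markers (2193 CPM, against a median of 190 CPM in its group), and BM LMPP 3 had the lowest total.

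Levels are given as CPM, a gene's counts as a share of the library's total after TMM scaling of all 36 libraries together, and differences are on the log2 scale from edgeR fits, with their standard error (SE). A gene was called at an adjusted p under 0.05 over all genes tested. Counts exceeded background in all 36 libraries for 10 of the 13 glycolytic enzymes and in 25 libraries for Pfkp. Adm was above background in 2 libraries and P4ha2 in none, so these 2 entered no test, and Ankrd37, Slc16a3 and Ddit4 could not be tested within the control table, which leaves 32 members tested where leukaemia libraries took part and 29 in controls. Of those 29, 12 were above background in no control HSC library and in at most 2 LMPP libraries, so that they met the filter mainly through LK: Pfkp, Pdk1, Hif1a, Egln1, Egln3, Bnip3, Car9, Higd1a, Kdm3a, Mxi1, P4ha1 and Vegfa.

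Per kilobase of exon, most of the glycolytic enzymes stood above the hypoxia targets. In control LK, Gapdh (triose phosphate oxidation) stood at 107 ± 7.76 CPM per kilobase (SD, n = 4), Pgam1 (phosphoglycerate mutase) at 103 ± 11.8, Ldha at 90.1 ± 9.2, Aldoa (aldolase) at 77 ± 10.4 and Pkm (pyruvate kinase) at 74.4 ± 9.79. The hexokinases and phosphofructokinases, which sit at the entry of the pathway, were lower, with Hk1 at 30.1 ± 4.09, Hk2 at 13.6 ± 1.77, Pfkl at 12.2 ± 1.34 and Pfkp at 4.56 ± 0.654. The ranges of Gapdh and Pgam1 overlapped, as did those of Pgam1 and Ldha, of Aldoa and Pkm, and of Hk2 and Pfkl. The range of Ldha also overlapped those of Gapdh, Aldoa and Pkm. Genes with overlapping ranges are therefore not put in order. The ranking also rests on the exon length that the annotation gives each gene. The highest of the other hypoxia targets was Bnip3l, a mitophagy receptor, at 17.9 ± 2.7 CPM per kilobase. Its mean was above those of Hk2, Pfkl and Pfkp, and its range overlapped that of Hk2. Below it stood the histone demethylase gene Kdm3a at 6.56 ± 1.03, P4ha1 at 5.82 ± 0.709 and Mxi1 at 5.7 ± 0.582, with overlapping ranges.

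**Figure D1:**
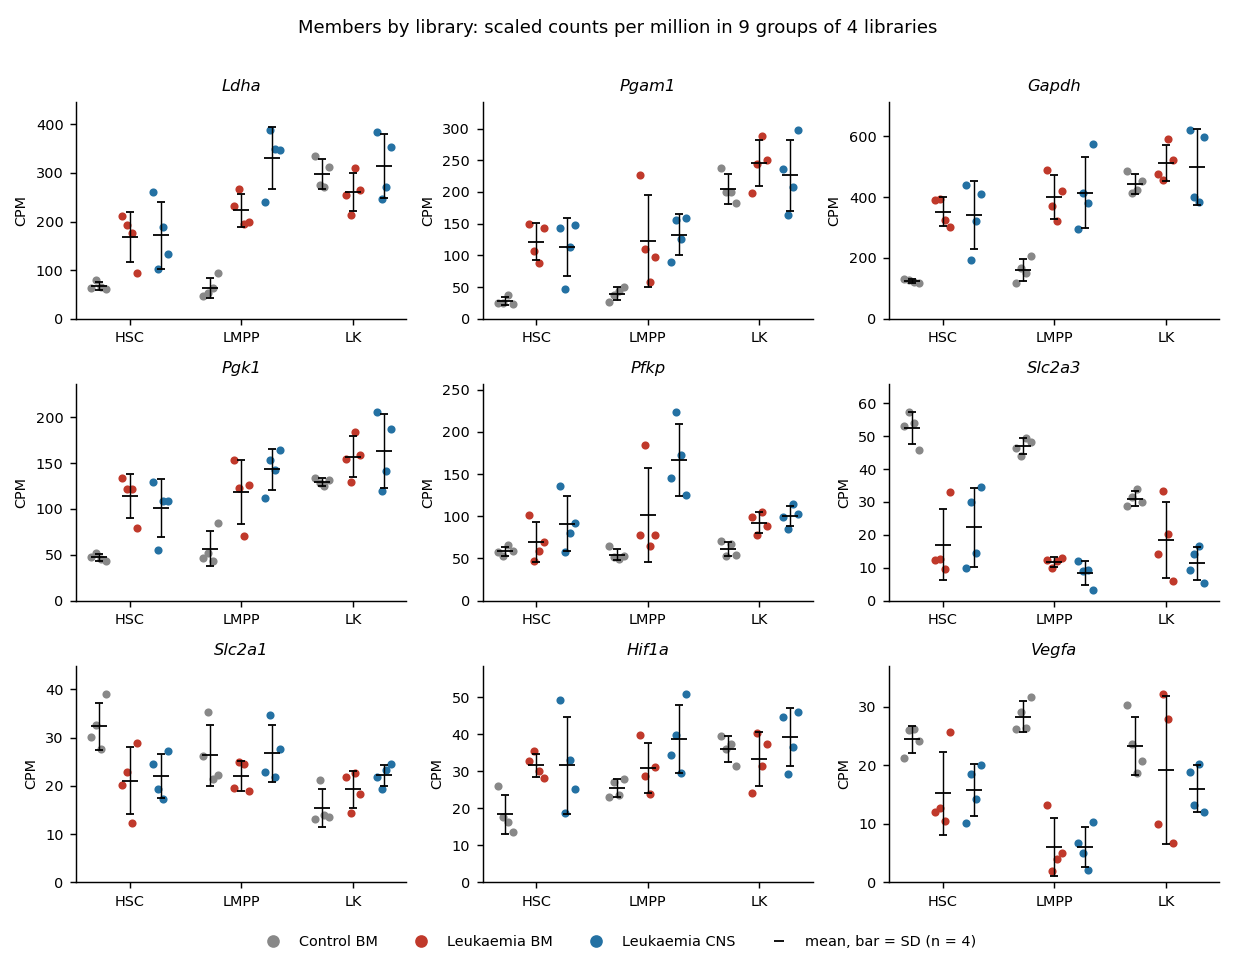
Scaled CPM (vertical axis, linear from 0) of 9 members in each of the 36 libraries, grouped by cell type and coloured by arm and niche; black bars are the group mean ± SD (n = 4). Ldha, Pgam1, Gapdh and Pgk1 are low in control HSC and LMPP and high in control LK and in leukaemia, whereas Slc2a3 is highest in control HSC and LMPP.

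The first comparison was between the 3 cell types of control marrow. Nearly all glycolytic enzymes were lower in HSC and in LMPP than in LK, while the glucose transporters Slc2a1 and Slc2a3 were higher relative to the median gene (and lower under a looser filter, below). Over the 3 types 22 of the 29 tested members were called, against 70.8% of all genes tested, so the number of calls itself is close to the background and the direction carries the description. In HSC against LK 23 of 29 were called (70.5% of all genes), 8 higher and 15 lower, and in LMPP against LK 20 (66.3% of all genes), 7 higher and 13 lower. HSC and LMPP did not differ in any member at the threshold, where 2.23% of all genes were called and 6 members had an unadjusted p under 0.05, and the values of all 34 members overlapped between them.

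Pgam1, Ldha, Gpi1 and Eno1 differed most. Pgam1, which moves the phosphate of phosphoglycerate, stood at 25.6, 25.5, 36.9 and 23.8 CPM (HSC), 26.9, 37.1, 43.8 and 50.1 CPM (LMPP) and 238, 199.6, 199.9 and 182 CPM (LK). Every LK value lay far above every HSC and LMPP value, and the log2 difference from LK was -2.44 ± 0.16, adjusted p = 2.5e-09, in HSC and -2.04 ± 0.15, adjusted p = 1.1e-08, in LMPP. Ldha, which makes lactate from pyruvate, had 63.8, 79.8, 64.3 and 61 CPM (HSC), 47.3, 52.8, 63.7 and 93.3 CPM (LMPP) and 335, 276, 271 and 311 CPM (LK). The groups were again apart from LK, with -1.72 ± 0.15 in HSC and -1.88 ± 0.15 in LMPP (adjusted p = 4.8e-08 and 3.3e-08). Eno1 (enolase) stood at 77.1, 77.2, 73.2 and 69.98 CPM (HSC), 64.5, 78.7, 72.4 and 112 CPM (LMPP) and 389.8, 321, 257 and 294 CPM (LK), which differed by -1.65 ± 0.14 and -1.61 ± 0.14 from LK with no overlap.

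Gpi1, the isomerase of glucose 6-phosphate, had 84.5, 98.2, 102 and 84.1 CPM (HSC), 92.3, 118, 115 and 194 CPM (LMPP) and 498, 418, 329 and 393 CPM (LK). Its LK values were all higher, and the differences were -1.72 ± 0.17 in HSC and -1.32 ± 0.16 in LMPP (adjusted p = 1.1e-07 and 2.2e-06). Gapdh stood at 131, 129, 122 and 118 CPM (HSC), 117, 166, 150.0 and 207 CPM (LMPP) and 486, 414, 424 and 452 CPM (LK), which gave -1.40 ± 0.14 and -1.14 ± 0.14. Its counts are uncertain because it has many near-identical processed copies in the mouse genome, and the same holds to a lesser degree for Pgk1, Pgam1, Ldha, Tpi1 and Eno1. Tpi1 (triose phosphate isomerase) had 35.5, 33.2, 35.6 and 39.5 CPM (HSC), 28.5, 46.6, 48 and 63.1 CPM (LMPP) and 132, 119.7, 106 and 119.8 CPM (LK), and Aldoa had 66, 73.2, 65.5 and 63.7 CPM (HSC), 52.9, 65.5, 67.4 and 117 CPM (LMPP) and 263, 224, 189.5 and 219 CPM (LK). Neither overlapped LK in HSC or LMPP, and in HSC they differed by -1.32 ± 0.14 and -1.31 ± 0.16 from LK.

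Pgk1 (phosphoglycerate kinase) followed at 48, 51.4, 45.8 and 43 CPM (HSC), 46.1, 52.4, 43.3 and 84.9 CPM (LMPP) and 133, 128, 125 and 132 CPM (LK). All its LK libraries were above the others, with -1.04 ± 0.14 in HSC and -0.86 ± 0.14 in LMPP. Pkm and Hk1 differed too, by -1.24 ± 0.18 and -0.77 ± 0.12 in HSC and by -0.96 ± 0.18 and -1.05 ± 0.12 in LMPP. The other hexokinase and the phosphofructokinases differed less: Hk2 by -0.30 ± 0.13 in HSC (adjusted p = 0.056, no longer called, with the mouse as a block) and -0.45 ± 0.13 in LMPP, both without a call after background subtraction, while Pfkl differed by 0.01 ± 0.10 and -0.19 ± 0.10 without a call, and Pfkp was 0.35 ± 0.14 in HSC (adjusted p = 0.031) and not called in LMPP. The Pfkp call did not hold: the difference fell to 0.07 after background subtraction (adjusted p = 0.81), it was lost without 1 library in 5 cases, and net of background Pfkp held 27 CPM in HSC against 50.7 in LK.

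The glucose transporters ran the other way. Slc2a3 (GLUT3) stood at 53, 57.3, 54.1 and 45.7 CPM (HSC), 46.5, 44, 49.3 and 48.2 CPM (LMPP) and 28.8, 31.4, 33.9 and 29.96 CPM (LK). Each HSC and LMPP value exceeded each LK value, and the fitted differences were 1.18 ± 0.12 and 0.94 ± 0.12 (adjusted p = 1.5e-07 and 2.2e-06). Slc2a1 (GLUT1) had 30.1, 32.6, 27.7 and 39.1 CPM (HSC), 26.1, 35.3, 21.5 and 22.4 CPM (LMPP) and 13, 21.2, 13.9 and 13.6 CPM (LK), again without overlap, with 1.48 ± 0.21 and 1.13 ± 0.21. Pfkfb3, which makes the activator of phosphofructokinase, was 0.36 ± 0.12 and 0.31 ± 0.12 higher, and Pdk1, which restrains pyruvate entry into mitochondria, was not called.

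Hif1a itself stood at 26, 17.6, 16.4 and 13.7 CPM (HSC), 23.2, 27, 23.7 and 27.9 CPM (LMPP) and 39.7, 36, 37.3 and 31.3 CPM (LK). Values in all HSC and LMPP libraries were below those in LK, and the fitted difference was called in HSC (-0.52 ± 0.16, adjusted p = 0.0076) and not in LMPP (-0.16 ± 0.16). Hif1a and Egln1 exceeded background in 0 HSC, 1 LMPP and 4 LK libraries each, and Egln3 in 0, 2 and 4, so these genes entered the test through the group in which they were high. The oxygen sensors Egln1 and Egln3 differed in HSC by -0.53 ± 0.15 and -1.02 ± 0.18, and Egln3 also in LMPP by -0.61 ± 0.17, which was not called after background subtraction (-0.59). Of the 9 other hypoxia targets tested, 4 were higher and 1 lower in HSC: Car9 (carbonic anhydrase, 1.11 ± 0.23), Ndrg1 (0.98 ± 0.17), Bnip3 (mitophagy, 0.80 ± 0.24) and Vegfa (vessel growth factor, 0.50 ± 0.14) were called higher on this scaling and turned lower under the looser filter, and Bnip3l fell (-0.71 ± 0.12). The same 5 were called in the same directions in LMPP. Car9, Bnip3 and Vegfa were above background in no HSC library, and Bnip3 lost its call on subtraction (0.50 in HSC and 0.76 in LMPP). Vegfa stood at 21.2, 26.1, 26.3 and 24.2 CPM (HSC), 26.1, 29.1, 26.3 and 31.7 CPM (LMPP) and 30.2, 23.6, 18.7 and 20.7 CPM (LK), and Bnip3 at 7.88, 10.4, 10.01 and 7.82 CPM (HSC), 12.1, 7.28, 9.7 and 11.4 CPM (LMPP) and 6.98, 8.41, 7.6 and 4.96 CPM (LK). Their ranges overlapped between cell types on the scale of all 36 libraries, so the fitted differences are relative to the median gene.

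These opposite directions depend on the scaling. On the scale of all 36 libraries the median gene of the control fit lies 0.42 lower in HSC and 0.34 lower in LMPP than in LK on the log2 scale. With the looser rule of 10 counts in 4 libraries the median gene shifts by -1.64 and -1.47. Under that rule Slc2a1, Slc2a3, Car9, Ndrg1, Bnip3, Vegfa and Pfkfb3 turned lower in HSC and LMPP (as did Pfkp in HSC), with 1 called member higher and 26 lower in HSC (44.7% of all genes called, 19.7% higher and 25% lower) and 1 higher and 27 lower in LMPP (39.8% of all genes called, 15.3% higher and 24.5% lower). The direction of the enzymes called lower did not change. With that shift added back, Slc2a1 was 1.52 and Slc2a3 1.21 higher in HSC relative to the median gene. Adding the shift back restores the first scaling by construction, so these values are no separate support for the direction.

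Background counts also moved with cell type. In control HSC the members' counts were 2.8 to 3.4 times the background of their length for Slc2a3, 3.4 to 5.0 for Slc2a1, 2.0 to 2.8 for Vegfa, 1.4 to 2.0 for Bnip3, 1.0 to 1.7 for Hif1a and 1.6 to 2.2 for Pfkp, against 9.0 to 10.2 for Aldoa. After the background was subtracted, Slc2a1 held 24.1 CPM in HSC, 18.3 in LMPP and 12.7 in LK, and Slc2a3 35.5, 30.4 and 25.4. Vegfa then held 14.4, 18.5 and 19.99 CPM, and Hif1a 4.53, 11.9 and 31.5. On subtracted counts 10 glycolytic enzymes fell in HSC and 10 in LMPP. The share of all genes falling on subtracted counts is not given here, so these counts have no background of calls beside them. Markers of proliferation moved with the enzymes: 23 of 24 cell cycle genes fell in HSC (median -1.55) and 21 in LMPP (median -0.85), and their part in the glycolytic difference was not tested. The cell cycle counts are to be read against the shares of all genes called in these comparisons, given above. Fewer expressing cells and less RNA per cell cannot be told apart in bulk libraries.

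**Figure D2:**
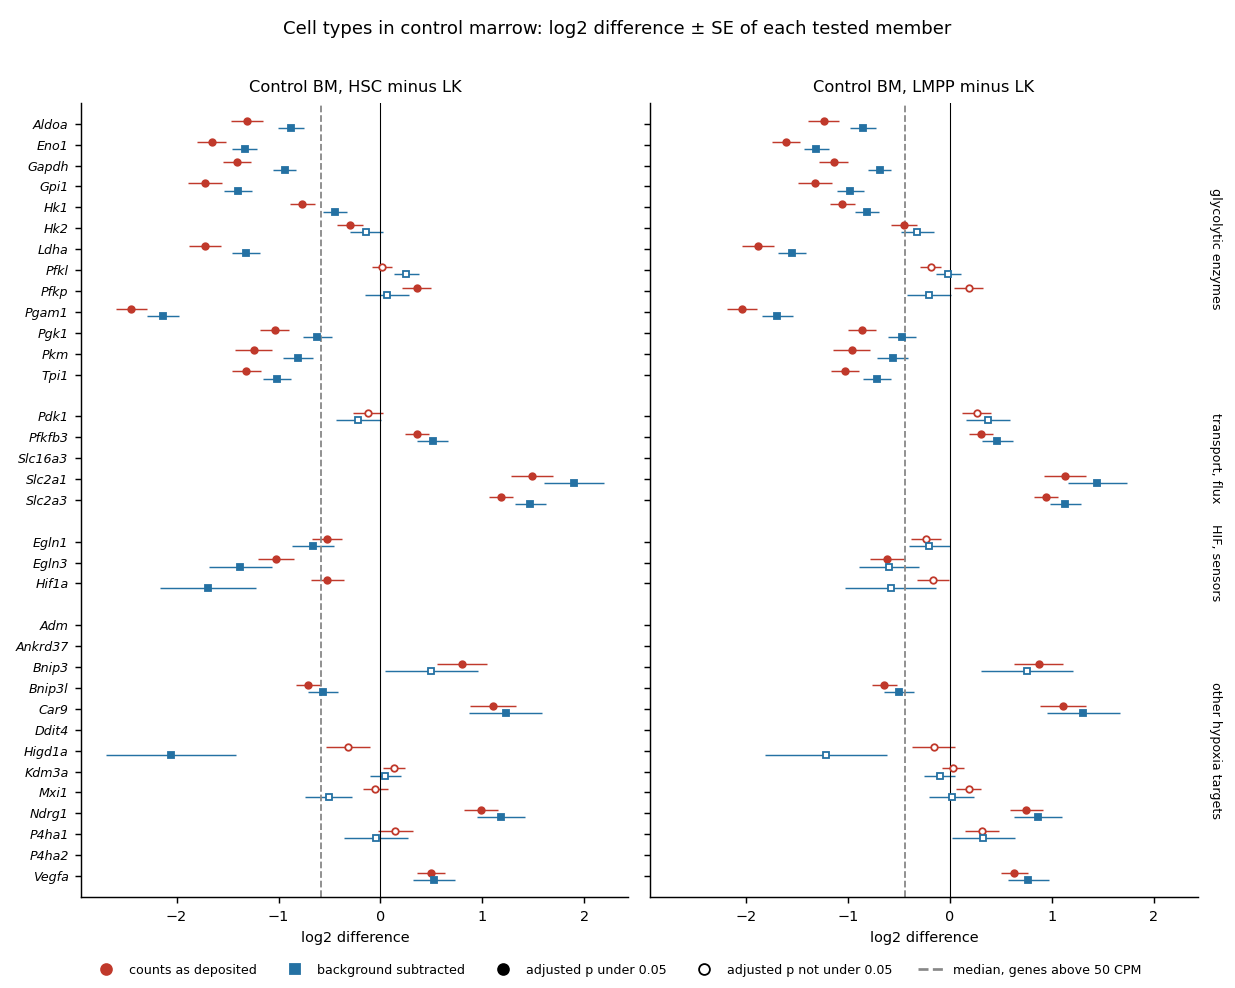
Log2 difference ± SE of each tested member in control marrow, HSC minus LK and LMPP minus LK (12 libraries), from counts as deposited (circles) and after background subtraction (squares); filled symbols have an adjusted p under 0.05 and the dashed line is the median of genes above 50 CPM. The glycolytic enzymes lie mostly to the left, to -2.44 for Pgam1 in HSC, and Slc2a1 and Slc2a3 to the right on this scaling.

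Leukaemic HSC and LMPP had higher glycolytic enzyme levels than their control counterparts, and leukaemic LK did not. In HSC 16 of 32 tested members were called (48.1% of all genes tested), 14 higher and 2 lower. In LMPP 20 were called (64.8% of all genes), 16 higher and 4 lower, and in LK 4 (17.1% of all genes), 3 higher and 1 lower. The counts are near the background in each, while the directions are uneven. Genes above 50 CPM as a class were also higher in leukaemic HSC and LMPP, so the direction is not particular to the members. On background-subtracted counts the enzymes' median was near that of these abundant genes in HSC and below it in LMPP (values below). All control libraries sit in one deposited table and all leukaemia libraries in another, so arm and table cannot be told apart.

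Ldha in leukaemic marrow stood at 211, 193, 177 and 93.6 CPM (HSC), 231, 267, 195 and 199 CPM (LMPP) and 254, 214, 310.2 and 266 CPM (LK). The leukaemic HSC and LMPP libraries were all above their controls while LK overlapped, with 1.20 ± 0.21 in HSC, 1.66 ± 0.21 in LMPP and -0.21 ± 0.20 in LK (adjusted p = 0.0001, 2.7e-06 and 0.52). Gapdh stood at 390.2, 393, 324 and 302 CPM (HSC), 488, 370.3, 322 and 420.2 CPM (LMPP) and 476, 456, 592 and 524 CPM (LK), a difference of 1.38 ± 0.16, 1.19 ± 0.16 and 0.18 ± 0.16 in the same order. Gpi1 held 337, 344, 386 and 213 CPM (HSC), 495, 447, 347 and 389.8 CPM (LMPP) and 478, 466, 759.7 and 544 CPM (LK), and its differences were 1.68 ± 0.22, 1.56 ± 0.21 and 0.43 ± 0.21. For these enzymes the HSC and LMPP groups separated completely from control and the LK groups did not.

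Eno1 stood at 250.4, 229, 208 and 256 CPM (HSC), 337, 233, 142 and 226 CPM (LMPP) and 259, 368, 487 and 344 CPM (LK), higher by 1.56 ± 0.22 in HSC and 1.39 ± 0.22 in LMPP. Pgam1 had 149.7, 106, 87.8 and 143 CPM (HSC), 226, 109.9, 58 and 97.2 CPM (LMPP) and 199, 244, 288 and 251 CPM (LK), higher by 2.01 ± 0.29 and 1.52 ± 0.28. The single lowest leukaemic Pgam1 value, in BM LMPP 3, still exceeded the highest control LMPP value. Aldoa had 178, 223, 190.4 and 120.0 CPM (HSC), 222, 194, 170.1 and 159 CPM (LMPP) and 222, 206, 273 and 240.4 CPM (LK) and Pkm 376, 374, 295 and 282 CPM (HSC), 497, 361, 297 and 319.6 CPM (LMPP) and 403, 397, 669 and 436 CPM (LK), and in HSC they were 1.29 ± 0.20 and 1.39 ± 0.23 higher without overlap. Pgk1 stood at 134, 122, 122 and 79.1 CPM (HSC), 154, 122, 70.8 and 126 CPM (LMPP) and 155, 129.8, 185 and 159 CPM (LK), with 1.16 ± 0.20 in HSC, 0.94 ± 0.20 in LMPP and 0.25 ± 0.20 in LK, and its LMPP values overlapped control at 70.8 CPM in BM LMPP 3.

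Of the 13 enzymes 9 were called higher in leukaemic HSC, and Hk1, Hk2, Pfkl and Pfkp were not. Hk1, the housekeeping hexokinase, stood at 116, 165, 131 and 84.1 CPM (HSC), 101, 84.9, 79.5 and 72 CPM (LMPP) and 104, 95.2, 121 and 91.2 CPM (LK) in leukaemia against 121, 112, 117 and 98.1 CPM (HSC), 81.8, 91.3, 102 and 115 CPM (LMPP) and 302, 247, 218 and 260.2 CPM (LK) in control. The LK libraries of leukaemia all lay below those of control (log2 difference -1.34 ± 0.17, adjusted p = 4.4e-06). HSC and LMPP were not called, and the LK call was lost under the looser filters, where it was -1.04 or less in size. The LK groups also differed in summed erythroid markers, at 1485, 1268, 1129 and 1632 CPM in control and 444, 118, 216 and 144 CPM in leukaemia marrow. The part of erythroid cells in the LK differences was not tested. Pfkp was called higher in LMPP only (0.76 ± 0.25, against 0.13 ± 0.25 in HSC and 0.58 ± 0.25 in LK), and its leukaemic values were 102, 47.2, 58.5 and 69.3 CPM (HSC), 78.2, 184, 64.4 and 77.9 CPM (LMPP) and 99.1, 77.2, 105 and 88 CPM (LK). Without BM LMPP 2, the library at 184 CPM, the LMPP difference was 0.31 and not called (adjusted p = 0.18).

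The sensors and the transporters moved apart. Egln3, a hydroxylase whose gene is itself induced by HIF, stood at 10.1, 12.9, 15.1 and 12.5 CPM (HSC), 18.2, 12.5, 22.7 and 17.5 CPM (LMPP) and 34.1, 36.3, 33.8 and 33.1 CPM (LK) in control and 57.6, 57.9, 84.2 and 20.6 CPM (HSC), 55.3, 53.9, 73.9 and 57 CPM (LMPP) and 90.2, 42.7, 57 and 73.2 CPM (LK) in leukaemia. The difference was called in HSC (2.00 ± 0.29), LMPP (1.61 ± 0.28) and LK (0.92 ± 0.27). The LK call was lost after background subtraction (0.88), under the looser filters, and without control LK 4 or BM LK 1. In control, Egln3 exceeded background in 0 HSC and 2 LMPP libraries, and Egln1 and Hif1a each in 0 and 1. The HSC and LMPP differences of these 3 genes are thus set against control groups mostly near background, and the genes met the filter through other groups. Egln1 stood at 37.9, 28.4, 27.5 and 31.1 CPM (HSC), 52.3, 56.1, 62.8 and 49.8 CPM (LMPP) and 49.9, 38.8, 69.6 and 55.8 CPM (LK) and was 0.57 ± 0.18 higher in HSC and 0.98 ± 0.18 in LMPP, and Hif1a at 32.8, 35.4, 30.2 and 28.3 CPM (HSC), 39.8, 28.8, 23.8 and 31 CPM (LMPP) and 24, 40.5, 31.5 and 37.4 CPM (LK), 0.65 ± 0.18 higher in HSC (adjusted p = 0.0067) and not called in LMPP or LK. Slc2a3 stood at 12.5, 12.8, 9.69 and 33.2 CPM (HSC), 12.4, 9.75, 11.9 and 13.1 CPM (LMPP) and 14.3, 33.4, 20.3 and 5.82 CPM (LK), a difference of -1.73 ± 0.36 in HSC and -2.13 ± 0.38 in LMPP, with all leukaemic values below control. Under the filter of 10 counts in 4 libraries or with none, Slc2a3 shrank to -0.76 or less in size in HSC and -0.48 or less in LMPP. Neither was then called. Slc2a1 stood at 20.2, 22.9, 12.3 and 28.9 CPM (HSC), 19.7, 25, 24.6 and 19 CPM (LMPP) and 21.8, 14.3, 22.7 and 18.2 CPM (LK); its difference in HSC of -0.72 ± 0.24 turned to 0.39 higher with the looser filter of 10 counts in 4 libraries, and it was not called without control HSC 4, BM HSC 2 or BM HSC 3.

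Among the other hypoxia targets Ddit4, an inhibitor of mTOR signalling, had the largest differences. Its leukaemic values were 29.4, 11.9, 23.9 and 11 CPM (HSC), 11.6, 197, 31 and 18.5 CPM (LMPP) and 43.8, 8.25, 71.3 and 27.4 CPM (LK) against control values between 3.65 and 10.5 CPM, higher by 3.06 ± 0.69, adjusted p = 0.0028, in LK and by 3.00 ± 0.69 in LMPP, and not called in HSC (1.06 ± 0.67). Without BM LMPP 2 the LMPP difference was 1.24, still called. Ddit4 exceeded background in 3 of 12 control libraries, so that it entered the test mainly through leukaemia. Vegfa, at 12, 12.8, 10.4 and 25.7 CPM (HSC), 13.3, 2.0, 3.97 and 5.05 CPM (LMPP) and 9.95, 32.2, 27.9 and 6.74 CPM (LK), differed in LMPP by -2.23 ± 0.47, below control with no overlap (adjusted p = 0.00027), and was not called in HSC (-0.78 ± 0.44) or LK (-0.30 ± 0.43). Under the looser filters the LMPP difference was -0.49 to -0.47 and not called, and 1 of 4 control LMPP libraries exceeded background. Bnip3 held 7.17, 7.22, 11.6 and 6.66 CPM (HSC), 7.09, 7.34, 23.1 and 6.33 CPM (LMPP) and 10.2, 7.47, 8.52 and 7.14 CPM (LK) and was called in no cell type (-0.26 ± 0.33, -0.16 ± 0.34 and 0.24 ± 0.32). Bnip3l was higher in HSC (0.85 ± 0.21) and LMPP (0.70 ± 0.20), Kdm3a in HSC (0.35 ± 0.14), and Pfkfb3, at 79.5, 77.3, 56.7 and 60.04 CPM (HSC), 77.4, 87.9, 75.5 and 67 CPM (LMPP) and 74.7, 74.9, 95.8 and 68.2 CPM (LK), was higher in LK (0.43 ± 0.14). Bnip3l in LMPP was not called on subtracted counts (0.46). Kdm3a in HSC lost its call in 8 alternatives, DESeq2 and RLE scaling among them, and Pfkfb3 in LK in 8, subtraction among them. Pfkfb3 was also called higher in LMPP, with 0.24 to 0.38 when 1 library was left out. That LMPP call was lost in 11 alternatives, DESeq2, RLE scaling and subtraction among them. Car9 and Slc16a3 (the lactate exporter MCT4) were lower in LMPP (-1.11 ± 0.25 and -1.34 ± 0.36); both turned higher, to 0.58 and 0.40, with the filter of 10 counts in 4 libraries. In control LMPP, Slc16a3 exceeded background in 0 and Car9 in 1 of 4 libraries, and Slc16a3 was not called on subtracted counts (-0.91). That filter moved the median gene by 1.20 in HSC, 1.64 in LMPP and 0.34 in LK, and with it the called members were 25 higher and 0 lower in HSC (20.3% and 1.06% of all genes), 28 higher and 2 lower in LMPP (26% and 36.8%), and 1 higher and 0 lower in LK (2.22% and 1.3%).

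Whether the disease difference depends on the cell type was tested by an interaction term, a test added after the data had been seen. It called 12 members (30.7% of all genes): 10 glycolytic enzymes, Slc16a3 and Vegfa. The disease difference in HSC exceeded that in LK by 1.77 on the log2 scale for Pgam1, 1.42 for Ldha and 1.20 for Gapdh, and in all 12 members were called in that contrast (19.1% of all genes), 11 higher and 1 lower. LMPP exceeded LK by 1.88 for Ldha and 1.28 for Pgam1 (0.90 and not called after background subtraction), with 12 members called (35.1% of all genes), 8 higher and 4 lower. Between HSC and LMPP the disease difference was called for 0 members and 1 gene (0.00653%). Cell cycle genes moved alongside, 23 of 24 higher in leukaemic HSC (median 1.29), 21 in LMPP (1.08) and 2 in LK (0.04), and their part was not tested. These counts are to be read against the shares of all genes called for leukaemia against control, given above.

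**Figure D3:**
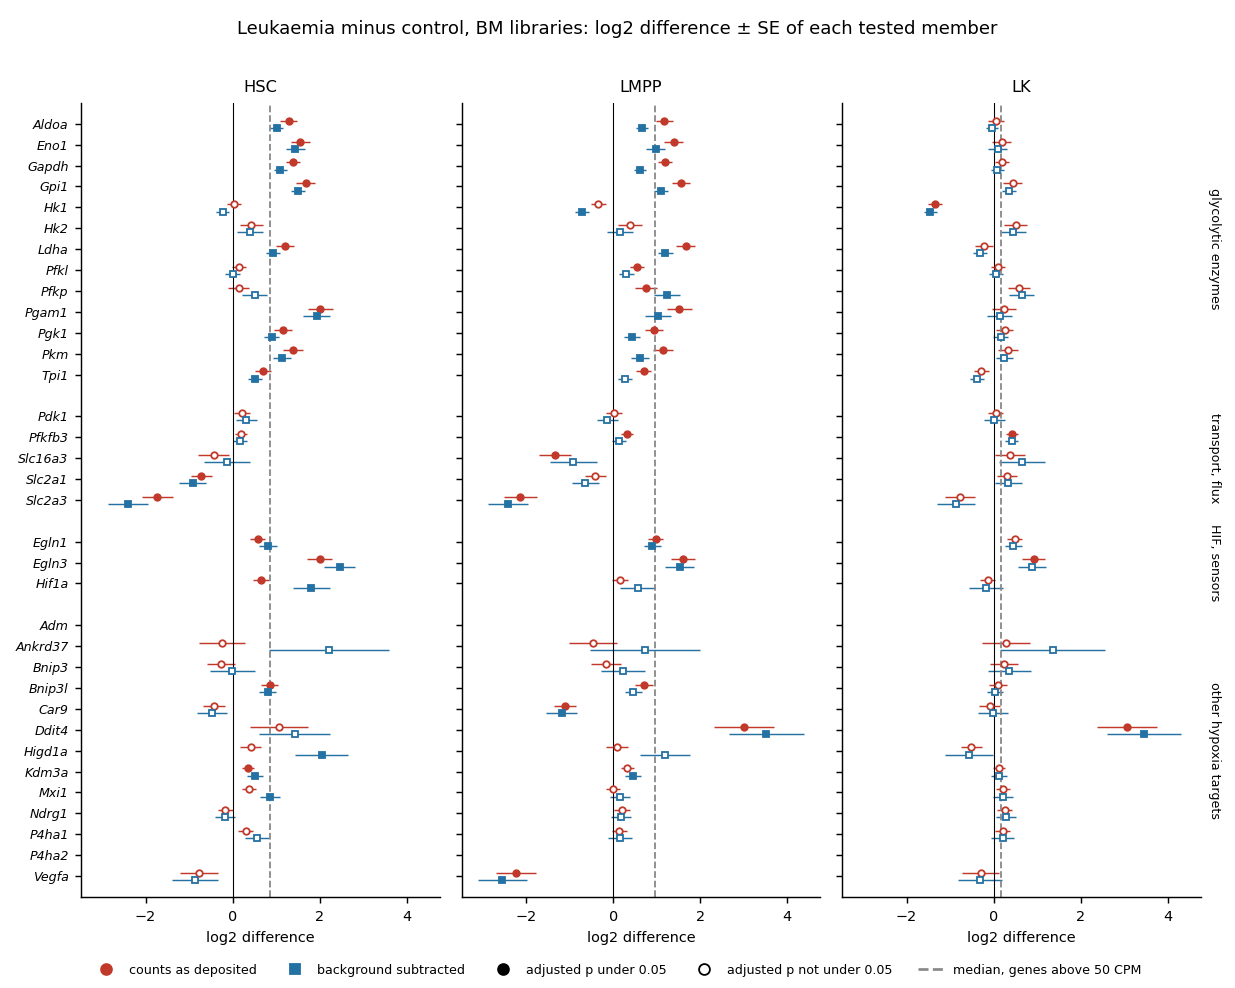
Log2 difference ± SE of each tested member, leukaemia minus control marrow, in HSC, LMPP and LK (24 BM libraries), with circles for counts as deposited, squares for background-subtracted counts, filled symbols for an adjusted p under 0.05 and a dashed line at the median of genes above 50 CPM. The enzymes lie to the right in HSC and LMPP, to 2.01 for Pgam1 in HSC, and around 0 in LK apart from Hk1.

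Within leukaemia the cell types differed less. In BM no member was called among the 3 types (0.132% of all genes, 21 genes), and the smallest adjusted p belonged to Egln1 (0.17), Pgam1 (0.19), Tpi1 (0.21) and Gpi1 (0.22). HSC stood below LK by -0.74 ± 0.23, -0.98 ± 0.34, -0.63 ± 0.19 and -0.78 ± 0.26 in these 4 genes. In the CNS 5 members were called over the 3 types (15.2% of all genes): Egln1, Ldha, Tpi1, Gpi1 and Pfkfb3, all lower in HSC than in another type. The CNS values of Ldha were 260.3, 103, 189 and 134 CPM (HSC), 240.1, 387, 348 and 347 CPM (LMPP) and 384, 246, 271 and 354 CPM (LK), and those of Egln1 46.2, 20.1, 31 and 33.2 CPM (HSC), 43.2, 64.1, 70.9 and 77.4 CPM (LMPP) and 49.5, 43, 52.2 and 79 CPM (LK). HSC values were lower on average but overlapped LK in both genes.

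In CNS HSC against CNS LK, Tpi1 differed by -0.69 ± 0.19, Gpi1 by -0.90 ± 0.26, Ldha by -0.84 ± 0.25 and Egln1 by -0.75 ± 0.23 (7.96% of all genes called), and against CNS LMPP Egln1 differed by -0.91 ± 0.23, Ldha by -0.89 ± 0.25 and Pfkfb3 by -0.63 ± 0.18 (12.9% of all genes called). CNS LMPP and CNS LK differed in 0 members (0.372% of all genes). CNS values were 335, 140.2, 341 and 235 CPM (HSC), 292, 478, 443 and 475 CPM (LMPP) and 563, 354, 474 and 607 CPM (LK) for Gpi1 and 81.8, 47.3, 65.1 and 63.3 CPM (HSC), 60.2, 83.5, 74.8 and 94.1 CPM (LMPP) and 115, 78.3, 92.8 and 139 CPM (LK) for Tpi1. Pfkfb3 had 88.3, 66.3, 73.9 and 38.2 CPM (HSC), 105, 105, 121 and 97.8 CPM (LMPP) and 88, 77, 86.2 and 83.7 CPM (LK). The 5 calls were all lost when background was subtracted (0 members) and when CNS HSC 2, with 24.2% background, was left out (0 members), and rose to 8 without CNS HSC 1. Microglia markers moved with this contrast, 7 of 11 tested being higher in CNS HSC than in CNS LK, as did 6 of 7 border macrophage markers, and their part was not tested.

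The niche comparison asked whether the same mouse's leukaemia cells differ between CNS and marrow. No member was called in the fit over all cell types or in HSC, LMPP or LK (0 of 15870 genes called in each, 0%). Unadjusted p was under 0.05 for 1486, 470, 1328 and 386 genes and for 2, 1, 3 and 0 members. No member was called for a niche difference that varies with cell type either, and the smallest unadjusted p there were 0.16 for Pfkfb3, 0.17 for Hk1, 0.26 for Hk2 and 0.29 for Slc2a3. With the mouse as a block, which sets each CNS library against its own marrow, 414 genes (2.61%) were called over all types. In LMPP 321 (2.02%) were called, in HSC 0 and in LK 1 (0.0063%). The pairs were uneven, with correlations of paired deviations from -0.28 in LMPP mouse 4 to 0.70 in LK mouse 4.

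Pfkp, the platelet-type phosphofructokinase that commits glucose to glycolysis, was the 1 member called in those blocked fits. Its CNS values were 135, 57.4, 80.3 and 91.4 CPM (HSC), 145, 223, 173 and 125 CPM (LMPP) and 98.9, 85.1, 114 and 103 CPM (LK), against the marrow values given above. The CNS library was the higher one in 11 of 12 mice, with log2 ratios from -0.00 to 1.41 and a median of 0.34, while the groups themselves overlapped. The blocked difference was 0.42 ± 0.09, adjusted p = 0.022, over all types and 0.76 ± 0.16, adjusted p = 0.024, in LMPP, against 0.39 ± 0.17, adjusted p = 0.44, and 0.68 ± 0.29, adjusted p = 0.51, without the block. Without 1 mouse the blocked value ran from 0.36 to 0.48, and the call over all types was lost in 6 of 12 such removals (HSC mice 1 and 3, LK mice 2, 3 and 4 and LMPP mouse 1, adjusted p = 0.054 to 0.068). The call in LMPP was lost without LMPP mouse 1 or 3 (adjusted p = 0.15 to 0.17). Pfkp was also no longer called when the mice of CNS HSC 1 and BM LMPP 3 were left out together, where 69 genes were called over all types and 1 in LMPP.

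The other members of smallest p changed less evenly. P4ha1, a collagen prolyl hydroxylase, stood at 25.5, 28.6, 29 and 22.3 CPM (HSC), 26.5, 31.6, 27.8 and 27.9 CPM (LMPP) and 28.2, 21.4, 35.4 and 27.5 CPM (LK) in marrow and 49.9, 20.1, 38.7 and 38.4 CPM (HSC), 43.2, 34.9, 39.9 and 39.2 CPM (LMPP) and 31, 21.3, 33.1 and 38.8 CPM (LK) in CNS. All CNS LMPP values exceeded all marrow LMPP values, 9 of 12 mice were higher in CNS, and the difference was 0.35 ± 0.12, adjusted p = 0.3, over all types. Ldha was higher in CNS in 10 of 12 mice with a median ratio of 0.36 and a difference of 0.27 ± 0.14, adjusted p = 0.61. It was called when the block was joined with background subtraction, a setting added after the data had been seen (0.33 ± 0.07, adjusted p = 0.022, over all types and 0.55 ± 0.11, adjusted p = 0.029, in LMPP). In LMPP, Pfkfb3 was higher in every CNS library than in every marrow library (0.44 ± 0.18, adjusted p = 0.48), and Ldha (0.53 ± 0.25) and P4ha1 (0.43 ± 0.21) followed. Mxi1, a MYC antagonist, was lower in CNS in 8 of 12 mice (-0.19 ± 0.12, adjusted p = 0.7) and without overlap in LK, at 35.6, 33.6, 38.3 and 35.3 CPM against 42.1, 48.4, 52.6 and 39.4 CPM.

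Within single cell types the remaining leads were small. In HSC they were P4ha1 (0.47 ± 0.21), Car9 (-0.55 ± 0.31), Pfkp (0.38 ± 0.29) and Gpi1 (-0.30 ± 0.25). In LK they were Mxi1 (-0.36 ± 0.20), Higd1a (0.42 ± 0.24), Hk1 (0.38 ± 0.23) and Slc2a3 (-0.70 ± 0.51). Higd1a, a mitochondrial protein of hypoxia survival, held 13.3, 13.6, 12.7 and 13.7 CPM in CNS LK against 12.6, 6.06, 12 and 8.99 CPM in BM LK, with no overlap. None of these passed the threshold in either fit.

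No core gene of the response separated the niches. Hif1a in CNS stood at 49.3, 18.7, 33.2 and 25.2 CPM (HSC), 34.5, 39.9, 29.6 and 50.9 CPM (LMPP) and 44.8, 29.3, 36.6 and 46.1 CPM (LK), a difference of 0.16 ± 0.14, adjusted p = 0.86. Vegfa held 10.1, 18.5, 14.3 and 20.02 CPM (HSC), 6.64, 4.94, 2.1 and 10.4 CPM (LMPP) and 18.8, 13.1, 20.2 and 12 CPM (LK) (-0.12 ± 0.31, adjusted p = 0.98), and Bnip3 12.2, 10.6, 5.56 and 5.96 CPM (HSC), 6.86, 7.32, 8.57 and 12.5 CPM (LMPP) and 10.7, 8.54, 8.47 and 10.2 CPM (LK) (-0.00 ± 0.21, adjusted p = 1). In each the CNS and marrow libraries overlapped in every cell type. Slc2a1 held 24.5, 19.3, 17.3 and 27.2 CPM (HSC), 22.8, 34.8, 21.9 and 27.6 CPM (LMPP) and 21.8, 19.4, 23.2 and 24.5 CPM (LK) (0.17 ± 0.13, adjusted p = 0.82) and was higher in CNS in 9 of 12 mice.

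Gapdh in CNS had 439.5, 192, 321 and 412 CPM (HSC), 295, 412, 380.2 and 573 CPM (LMPP) and 619.6, 399.8, 384 and 597 CPM (LK) (-0.03 ± 0.14, adjusted p = 0.99), and Pgk1 129.9, 55.4, 109 and 108 CPM (HSC), 112, 154, 142 and 165 CPM (LMPP) and 206, 119, 141 and 187 CPM (LK) (0.03 ± 0.14, adjusted p = 0.99). They were higher in CNS in 7 and 6 of 12 mice. A p that misses the threshold does not show that the niches are alike.

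**Figure D4:**
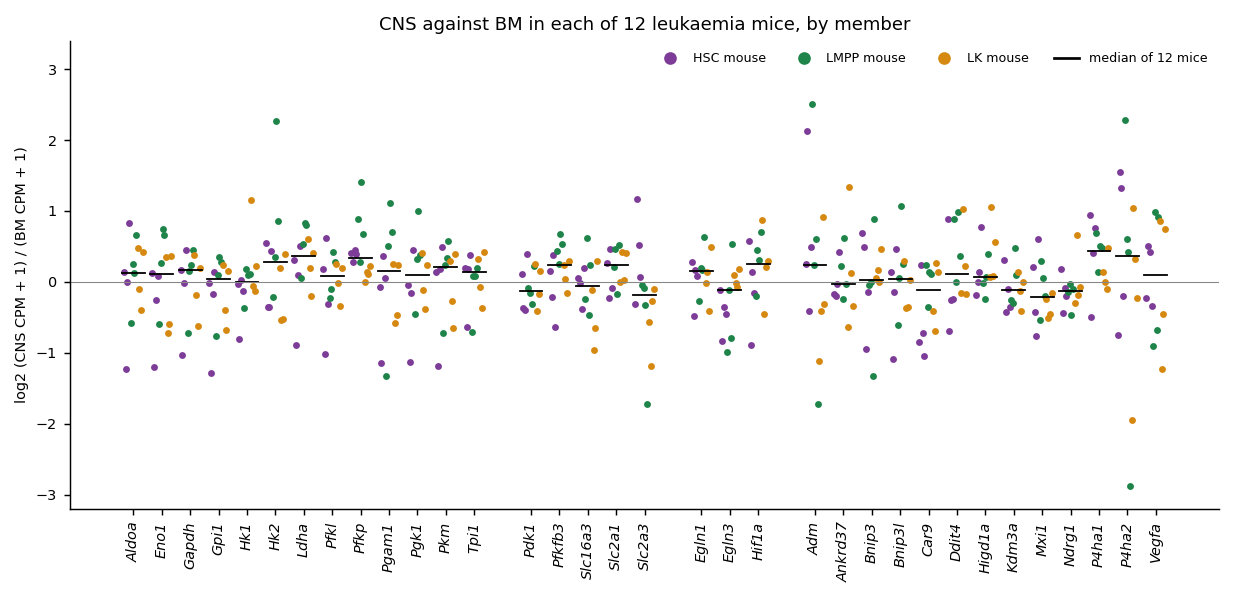
Log2 ratio of CNS to marrow, (CPM + 1) over (CPM + 1), for each member (horizontal axis) in each of the 12 mice (points, coloured by cell type), with the median as a black bar. Pfkp lies at or above 0 in all mice but 1, which is at -0.00, and Ndrg1 is higher in CNS in only 2 mice.

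Background and mouse moved together in these pairs. The median CNS to marrow ratio of the 13 enzymes ranged from -1.03 in HSC mouse 2, whose background rose from 8.96% in marrow to 24.2% in CNS, to 0.58 in LMPP mouse 4, whose background fell from 6.34% to 0.443%. It was -0.58 in LMPP mouse 1 (2.14% to 8.50%), -0.39 in LK mouse 3 (3.80% to 8.30%), 0.39 in HSC mouse 4 (26.5% to 15.2%) and 0.32 in LK mouse 1 (8.47% to 1.08%). Other hypoxia targets spanned only -0.21 to 0.42 over the same mice. In LMPP mice 2 and 3 the enzyme ratio was 0.26 and 0.42 while background rose from 1.47% to 3.05% and from 0.784% to 2.21%. Of 22 tested genes of the immediate early and heat shock response, 13 were called higher in CNS over all types with the block (median 0.69), mature neutrophil markers leaned lower (2 of 12 called, median -2.10), and 2 of 24 cell cycle genes were called lower (median -0.34). Border macrophage markers had mean log2(CPM + 1) of 4.37, 4.56, 3.81 and 2.36 in CNS LMPP 1 to 4, against 2.64, 2.56, 1.78 and 2.64 in marrow. Microglia markers held 4.85, 3.82, 3.73 and 2.09 there, against 2.55, 2.75, 1.95 and 2.73. The part of any of these markers in the niche values, that of Pfkp included, was not tested.

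Mean levels of each list, background included, were as follows. The mean log2(CPM + 1) of the 13 enzymes in control marrow was 6.06 ± 0.06 (SD, n = 4) for HSC, 6.18 ± 0.30 for LMPP and 7.58 ± 0.14 for LK. In leukaemia marrow it was 7.14 ± 0.21 in HSC, 7.25 ± 0.35 in LMPP and 7.67 ± 0.21 in LK, and in CNS 7.05 ± 0.47, 7.50 ± 0.24 and 7.69 ± 0.30. The 13 other hypoxia targets stayed between 3.78 ± 0.14 (leukaemia BM LMPP) and 4.13 ± 0.06 (control LMPP) in all 9 groups. Background was a large part of these values: in control HSC 11 of the 13 exceeded it in no library. Net of background, 7 of the 9 tested targets were lower in control HSC than in LK and 8 in control LMPP, on the scale of all 36 libraries. Bnip3l held 22.1 CPM in HSC against 66 in LK, Kdm3a 24.7 against 47.6 and Mxi1 11.7 against 33.6. Hif1a and its sensors ranged from 4.12 ± 0.12 in control HSC to 5.72 ± 0.37 in CNS LK, and transport and flux control was highest in control HSC (5.31 ± 0.05) and lowest in leukaemia BM LMPP (4.76 ± 0.08).

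The median log2 differences set the lists against other genes. In control HSC against LK the enzymes' median was -1.31, that of other hypoxia targets 0.15 and that of transport and flux control 0.77, while all genes tested stood at 0.03 and genes above 50 CPM at -0.58. In LMPP against LK the medians were -1.05, 0.32 and 0.63, with -0.44 for genes above 50 CPM. For leukaemia against control they were 1.20 for enzymes and 0.30 for other targets in HSC (0.87 for genes above 50 CPM), 1.14 and 0.09 in LMPP (0.96), and 0.19 for enzymes in LK (0.17). In HSC against LK 11 of 13 enzymes fell, against 62.6% of genes above 50 CPM, so abundant genes as a class lean the same way. On background-subtracted counts the enzymes' medians were -0.88 in control HSC and -0.71 in control LMPP against LK, and those of the tested other targets 0.05 and 0.33. For leukaemia the enzymes' medians were 0.92 in HSC, near the 0.90 of genes above 50 CPM, and 0.62 in LMPP, below their 0.75, and those of other targets 0.56 and 0.23. In the niche comparison over all types the medians were -0.00 for enzymes and -0.06 for other targets.

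**Figure D5:**
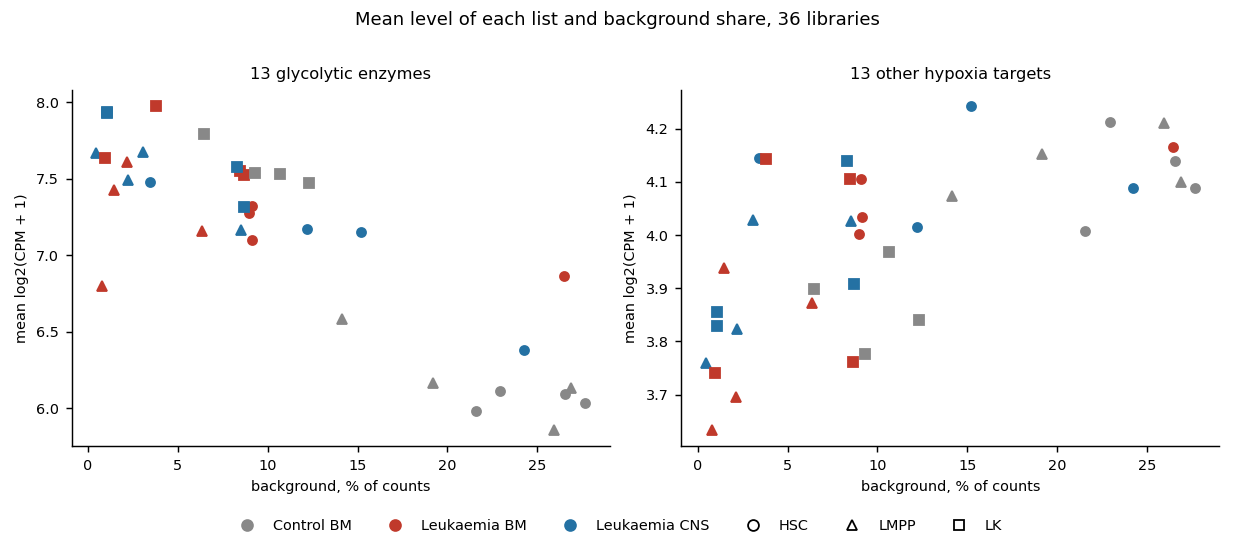
Mean log2(CPM + 1) of the 13 glycolytic enzymes and of the 13 other hypoxia targets (vertical axes) against the background share of counts in percent (horizontal axis), 1 point per library for all 36, coloured by arm and niche with the symbol giving the cell type. Enzyme levels are lower in libraries of high background, which include the control HSC and LMPP libraries at 14.1% to 27.7%, and the other targets, whose counts hold a larger part of background, span 3.63 to 4.24 with the higher values mostly in libraries of high background.

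Counts in neighbouring pathways are to be read against the shares of all genes called, 70.5% and 66.3% in control HSC and LMPP against LK, and 48.1%, 64.8% and 17.1% in leukaemic HSC, LMPP and LK against control. Most lie near them. In the pentose phosphate branch, which makes NADPH and ribose from the same glucose 6-phosphate, 7 of 7 genes fell in control HSC and 7 of 7 in control LMPP against LK, and 6, 5 and 1 rose in leukaemic HSC, LMPP and LK against control. Of 12 regulators of the HIF pathway 9 were tested in controls, with 2 higher and 5 lower in HSC and 2 higher and 4 lower in LMPP. Of 11 tested for leukaemia, 4 rose and 1 fell in HSC, 4 rose and 1 fell in LMPP, and 1 rose and 1 fell in LK. Of 28 further hypoxia targets 15 were tested in controls, with 3 higher and 7 lower in HSC, and of 19 tested for leukaemia 7 rose and 4 fell in HSC and 6 rose and 3 fell in LMPP. Of 22 other isoenzymes and lactate genes 11 were tested in controls (4 rose and 5 fell in HSC) and 15 for leukaemia (3 rose and 5 fell in HSC).

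Single genes of these lists are named where they passed, at most 6 a comparison, and are not always those of largest difference. With the mouse as a block, Taldo1 differed by -1.88, Tkt by -1.84 and Hif3a by 1.78 in control HSC against LK. In control HSC against LK the transferrin receptor Tfrc differed by -2.46, the lactate transporter Slc16a1 by -1.82, G6pdx, the entry enzyme of the pentose branch, by -1.54, Hk3 by -1.48, Pdha1 by -1.39 and Ppfia4 by 1.60. In leukaemic against control HSC, Cxcr4, the receptor that holds cells in marrow, differed by 2.44, Hk3 by 2.25, Taldo1 by 2.02, Tfrc by 1.82, Wsb1 by 1.62 and Tkt by 1.42. In LMPP these were Tfrc by 2.15, Cxcr4 by 2.13, Cited2, a competitor of HIF for its coactivator, by 2.00, Hk3 by 1.79, Pgls by 1.57 and Hif3a by -2.63. In LK Pklr, the pyruvate kinase gene of liver and red cells, differed by -3.68, Slc16a1 by -2.09 and Pfkm by -1.58. Ppfia4 differed there by 1.87, Slc2a6 by 1.70 and Cxcr4 by 1.33. Erythroid markers were lower in leukaemic than in control LK as well, and their part in these values was not tested. Between niches with the mouse as a block, Hmox1 (haem oxygenase) was 1.81 higher and Bhlhe40 1.70 higher in CNS LMPP, Tfrc differed there by -0.99, and Cxcr4 by -0.43 over all types. Microglia and border macrophage markers were also higher in CNS in most LMPP pairs, and their part was not tested.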

How the data were processed

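Total RNA of sorted cells was made into libraries with a stranded pico-input kit, per the labels' protocols. The authors deposited 2 tables of counts per gene identifier, one for the leukaemia and one for the control libraries; although named as normalised, they hold whole counts with totals that differ between libraries. The submitters' processing notes name DESeq2 and GRCm39; aligner, counter and the strand setting used were not given in the sources used here, so reads of a gene and an antisense partner cannot be told apart. Symbols and exon lengths came from a GENCODE annotation of GRCm38 for 52133 of 55414 identifiers (3281 without), and all 240 listed genes were matched. Libraries were grouped by their labels.

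Genes were tested where the count exceeded 3 times the background of their exon length plus 10 in at least 4 libraries: 15870 genes for leukaemia, 11178 for controls and 15303 for the BM libraries of both tables, with 17243 over all libraries for the levels. Differences were tested in R 4.3.3 with edgeR 4.0.16 (TMM scaling, quasi-likelihood test, Benjamini-Hochberg over all genes tested, threshold 0.05); the SE is the log2 difference divided by the square root of F. The tests were also run on simulated counts. These had a common dispersion and neither mouse effects nor a background that varied between libraries, so that check does not cover those features. The mouse pairs samples by the labels' mouse IDs (correlations of paired deviations from -0.28 to 0.70, median 0.28) and entered as a block in an alternative fit. Further alternatives were DESeq2 1.42.0, RLE scaling, other filters, subtraction of the background, and leaving out each library or the mice of CNS HSC 1 and BM LMPP 3. Pair ratios used a pseudocount of 1 CPM; genes above 50 CPM serve as abundant genes.

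The members and all lists were chosen with earlier results of these data known. Members given in every sample were, by rule, those passing in the main or blocked fit (at most 8 a comparison, by smallest p; otherwise the 4 of smallest p) together with Hif1a, Slc2a1, Vegfa, Bnip3, Gapdh, Ldha and Pgk1; genes of the neighbouring lists were named where they passed (at most 6 a comparison).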

Additional observations from a re-analysis of the deposited data

Results flagged for a closer look

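Within a group of 4 libraries, 1 library lay far from the other 3 for 21 of the 306 combinations of member and group (a gap above Dixon's critical value for 4 samples; chance alone flags about 1 in 20). Among the enzymes these were Hk1 in CNS LK 1 (233 CPM), Pfkp in BM LMPP 2 (184), Pgam1 in control HSC 3 (36.9), and Pkm in BM LK 3 (669) and control LK 1 (445). Among transport genes and sensors they were Slc2a1 in control LK 2 (21.2 CPM), Slc2a3 in BM HSC 4 (33.2) and Egln3 in BM LMPP 3 (73.9). Among other hypoxia targets they were Ddit4 in BM LMPP 2 (197 CPM), Vegfa in BM HSC 4 (25.7), Mxi1 in BM HSC 3 (55.0), Bnip3 in BM HSC 3 (11.6) and BM LMPP 3 (23.1), Ndrg1 and Kdm3a in BM LMPP 3 (63.6 and 42.9), Bnip3l in control HSC 4 (27.0) and control LMPP 4 (47.8), P4ha1 in control LMPP 2 (16.2), Higd1a in CNS LMPP 3 (15.9), and Adm in BM LMPP 4 (2.31) and CNS LMPP 1 (6.20). Of these, 4 sit in BM LMPP 3, the library of fewest counts; whether its depth bears on them was not tested.

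The difference between leukaemia and control marrow itself differed between cell types, by the interaction contrasts of the edgeR fit, for 12 members in HSC against LK. On the log2 scale the leukaemia difference in HSC minus that in LK was 1.77 for Pgam1, 1.42 for Ldha, 1.37 for Eno1 and for Hk1, 1.24 for Aldoa and for Gpi1, 1.20 for Gapdh, 1.06 for Pkm, 0.98 for Tpi1, 0.91 for Pgk1, 0.79 for Hif1a and -1.02 for Slc2a1. The same held for 12 members in LMPP against LK, with 1.88 for Ldha, 1.28 for Pgam1, 1.21 for Eno1, 1.13 for Gpi1, 1.12 for Aldoa, 1.01 for Gapdh, 1.00 for Hk1, 0.98 for Tpi1, -1.02 for Car9, -1.36 for Slc2a3, -1.72 for Slc16a3 and -1.93 for Vegfa. In LMPP minus LK the calls were lost after background subtraction for Gapdh (0.53), Pgam1 (0.90), Slc16a3 (-1.56), Car9 (-1.16) and Slc2a3 (-1.54), and under the looser filters for Slc16a3 and Vegfa (to -0.29 and -0.44), for Slc2a3 and for Car9, which turned higher. Counting these, Slc2a3 lost its call or reversed in 15 alternatives, most of them without 1 library. In HSC minus LK, Hif1a lost its call in 8 alternatives, Slc2a1 in 13, Pgk1 in 3 and Pkm in 1. Arm and deposited table cannot be told apart in these contrasts.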

How the results depend on the processing

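Most settings kept the direction and side of the threshold: of the single-member values under alternatives 2019 did so, 193 lost their call, 5 gained one and 39 reversed, and of the list medians 519 moved by less than the spread between replicates, 60 moved further and 5 reversed. The filter on low counts mattered most. With 10 counts in 4 libraries, the control HSC against LK differences became -0.81 for Bnip3, -0.53 for Car9, -0.62 for Ndrg1, -1.27 for Pfkfb3, -1.29 for Pfkp, -0.13 for Slc2a1, -0.44 for Slc2a3 and -1.18 for Vegfa, and those of LMPP against LK -0.58 for Bnip3, -0.39 for Car9, -0.72 for Ndrg1, -1.16 for Pfkfb3, -0.35 for Slc2a1, -0.52 for Slc2a3 and -0.88 for Vegfa. Leukaemia against control became 0.58 for Car9 and 0.40 for Slc16a3 in LMPP and 0.39 for Slc2a1 in HSC, the LMPP minus LK disease difference of Car9 0.39, and the medians of other hypoxia targets -0.81 and -0.72 in control HSC and LMPP against LK. With no filter the same values were -0.85, -0.57, -0.66, -1.31, -1.33, -0.17, -0.48 and -1.23 in HSC, -0.61, -0.42, -0.76, -1.19, -0.38, -0.55 and -0.92 in LMPP, 0.58, 0.41 and 0.40 for leukaemia, 0.43 for Car9 and 0.041 for Slc2a3 in the LMPP minus LK disease difference, and -0.85 and -0.76 for the medians. By their construction, genes not above background also enter the scaling under both filters, and their part in these reversals was not tested. With 10 counts in 4 libraries 17406 genes were called over control types, 6 over leukaemia BM types, 25 over leukaemia CNS types, and 1529 in LK and 27297 in LMPP for leukaemia against control; 0 members were called over CNS types, 25 in HSC and 1 in LK for leukaemia against control. With no filter these were 15974 (control types), 215 (CNS types), 1377 (LK) and 27231 (LMPP), with 39 genes between niches over all types, and again 0, 25 and 1 members.

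DESeq2 called 60 genes between niches in LMPP, 158 over all types, 491 over leukaemia BM types and 4796 over CNS types, with 10 members there, and RLE scaling 42 over BM types. Subtracting the background gave 9 genes over leukaemia BM types and 665 over CNS types, 0 members over CNS types, 2 in LK for leukaemia against control, and an enzyme median of 0.060 in CNS HSC against LMPP. Of the genes called for leukaemia against control in HSC 57.3% were higher, against 95.0% with 10 counts in 4 libraries, 69.5% after background subtraction and 46.7% with DESeq2, and in LK 58.4% against 47.1% with DESeq2. For control LMPP against LK the share was 52.3% against 38.4% with 10 counts in 4 libraries, and for CNS HSC against LK and LMPP 35.0% and 42.7% against 51.3% and 57.7% with DESeq2. For the disease difference of HSC and LMPP minus LK it was 76.5% and 51.7% against 98.9% and 87.0% with 10 counts in 4 libraries. With the replicate block 1 member was called between niches in LMPP and 1 over all types, and 1, 321 and 414 genes in LK, LMPP and over all types; with 10 counts in 4 libraries and the block 1 gene in LK and 30 over all types, and with the background subtracted and the block 2 members (Pfkp and Ldha) in LMPP and over all types, with 310 and 404 genes. Beside Pfkp the block changed the call of 1 member, Hk2 in control HSC against LK (-0.30). Without the 2 mice that stand apart the blocked fit called 1 gene in LMPP and 69 over all types, and the fit without block 102 over leukaemia BM types and 3704 over CNS types. The causes were not tested.

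Leaving out 1 library at a time gave 0 to 256 genes between niches over all types and 0 to 288 with 0 to 1 members in LMPP, the highest without BM LMPP 2; 0 (without BM HSC 2) to 128 (without BM LMPP 1) genes and 0 to 1 members over leukaemia BM types; 553 (without CNS HSC 2) to 5462 (without CNS HSC 1) genes and 0 to 8 members over CNS types; and 2 (without control LK 4) to 6 members for leukaemia against control in LK. Adm, P4ha2 and Ankrd37 exceeded background in 2, 0 and 9 of 36 libraries, and 12 of the 29 members tested in controls did so in no control HSC library. How far sequencing depth limits them was not tested.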

Other observations

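Ddit4, the stress-induced inhibitor of mTOR signalling, varied more between leukaemia mice than between niches. In LMPP mouse 2 it stood at 197 CPM in marrow and 197 CPM in CNS, while the other LMPP mice held 11.6 and 22.1, 31.0 and 62.4, and 18.5 and 24.1 CPM in marrow and CNS. In LK the pairs were 43.8 and 39.4, 8.25 and 17.8, 71.3 and 83.1, and 27.4 and 24.2 CPM. In HSC they were 29.4 and 55.0, 11.9 and 7.00, 23.9 and 19.8, and 11.0 and 9.17 CPM. Whether the mice differed in handling or in disease course was not tested.

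Egln3 showed a like pattern in HSC, where mouse 4 had the lowest value in marrow (20.6 CPM) and in CNS (14.8 CPM) and the other mice held 57.6 and 53.1, 57.9 and 32.0, and 84.2 and 65.6 CPM. HSC mouse 4 also had the highest marrow values of Slc2a3 (33.2 CPM) and Vegfa (25.7 CPM) and the highest marrow background of its group (26.5%).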
